A study of Mus musculus with 18 samples.

Results

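Intestinal stromal cells (IntSCs) of the mouse small intestine were compared between LATS1/2 knockout (KO) and control (WT) animals across every expressed gene. These cells make up 11 of the 18 samples of the series, chosen by their titles, with 6 WT and 5 KO libraries. All were adult C57BL/6J mice. The KO group carried PDGFRb+-CreERT2, a Cre recombinase that tamoxifen switches on in cells using the Pdgfrb promoter, together with the Tomato+ reporter and the loxP-flanked alleles Lats1f/f and Lats2 f/f. The WT group carried the same Cre and reporter, which all 11 libraries thus shared, and its label names no floxed allele. After the muscle layer had been stripped off and cells bearing CD45, CD326 or CD31 had been depleted with magnetic beads, Tomato-positive cells were sorted. Pdgfrb marks fibroblasts, pericytes and smooth muscle cells alike, so each library was a mixture of stromal cell types, and fewer cells of a type cannot be told apart from less RNA per cell. The libraries held 3′ tags, which read the end of each transcript.

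LATS1 and LATS2 are the terminal kinases of the Hippo pathway. They phosphorylate the coactivators YAP and TAZ and hold them in the cytoplasm. Without them, YAP and TAZ enter the nucleus and act on promoters and enhancers mainly through the TEAD factors. In the intestine, stromal cells lay down the collagens, elastic fibres and proteoglycans beneath the epithelium, and they secrete growth factors and their inhibitors that act on epithelium, vessels, nerves and immune cells.

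Total counts ranged from 5361250 to 8095271 per library, and 11848 to 15926 genes had a read. Neither the total (exact two-sided permutation test of 6 against 5 libraries, p = 0.130) nor the number of genes with a read (exact permutation p = 0.255) passed the threshold. The defining stromal marker Dcn, the proteoglycan decorin, lay between 2897 and 5299 CPM in all 11 libraries, and Pdgfra, a fibroblast receptor, between 205 and 518 CPM. CPM here are counts scaled to the depth of each library with the TMM factors of the comparison. Both groups held libraries with high Xist, the transcript of the inactive X chromosome, 2 of 6 in WT and 2 of 5 in KO. In each group these were the libraries numbered 1 and 2. WT IntSC 6 stood apart with a summed level of 175 CPM over the 13 pan-epithelial markers, where the remaining WT libraries held 5.30 to 33 CPM.

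The targeted genes did not check the labels, because a 3′ tag can still be counted from a transcript that has lost internal exons. Lats1 counts were 0 in WT IntSC 2 and 12.1 to 29.5 CPM in the other WT libraries, and 12.4 to 21.1 CPM in the libraries labelled KO, which are called KO from here on by their label alone. Lats2 was between 41.1 and 111 CPM in WT and between 78 and 130 CPM in KO. The exact permutation p was 0.0216, and 0.0758 adjusted over 7 such tests. Pdgfrb itself, whose promoter drives the Cre, was measured at 213, 461 and 669 CPM as the lowest, median and highest of the WT libraries, and at 855, 756, 678, 1183 and 833 CPM in KO. All 5 KO values lay above all WT values, while the edgeR fit gave a log2 fold change of 0.86 ± 0.23 (SE) with an adjusted p of 0.0613.

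Of 12421 genes tested with edgeR's quasi-likelihood test, 183 passed an adjusted p of 0.05 (1.47%). Of these, 106 were higher (0.853% of the genes tested) and 77 lower (0.620%) in KO IntSCs. The median log2 fold change over all genes tested was 0.003. Scaling with the TMM factors sets it near 0, so it cannot show whether a general shift was present. Among the 106 higher genes, 87 had every KO library above every WT library, and among the 77 lower genes 59 had every KO library below every WT library. Over all genes tested, 352 had groups that did not overlap (2.83%). The higher genes reached larger differences, with 27 at a log2 fold change of 3 or more against 5 at -3 or less. Each transcript gives a tag at its end whatever its length, and on that scale the lower genes were the more abundant, with a median level of 160 CPM against 62.9 CPM for the higher genes and 21.0 CPM for all genes tested.

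**Figure D1:**
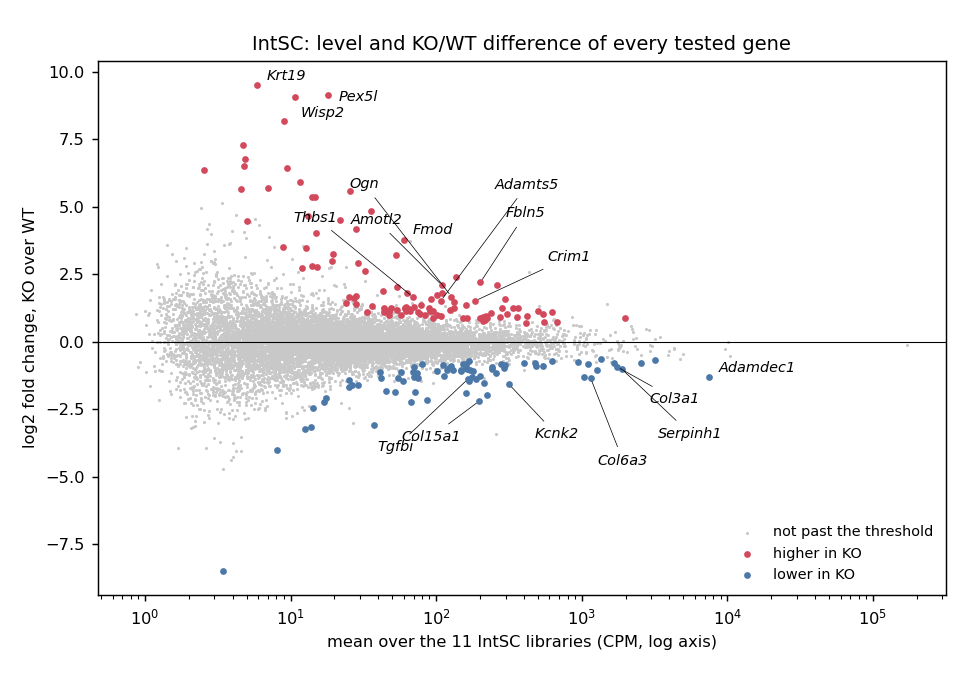
Each point is 1 of the 12421 genes tested, with its mean level over the 11 IntSC libraries in CPM on a log axis and its log2 fold change of KO over WT. Red points are the 106 genes higher in KO and blue points the 77 lower in KO; Adamdec1 is the most abundant gene called, and the genes with the largest fold changes are rare in WT.

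Of 24 collagen chains tested, 6 fell, where 0.620% of all genes tested fell, while 18 did not pass the test and none rose, and 6 of the 24 had a log2 fold change above 0. Their median log2 fold change was -0.54, beside 0.003 over all genes. The summed level of the list was between 11926 and 17310 CPM in WT and between 7569 and 11312 CPM in KO, so the groups did not overlap.

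Col15a1 encodes a collagen of basement membrane zones. Its level was 243, 288 and 392 CPM as the lowest, median and highest of WT, and 65.5, 68.9, 50, 84.0 and 67.1 CPM in the 5 KO libraries. Every KO library was far below every WT library (log2 fold change -2.19 ± 0.19, SE, adjusted p = 1.18e-06). Col6a3, a chain of the beaded-filament collagen VI, was at 1232, 1449 and 2195 CPM in WT and at 582, 511, 637, 628 and 784 CPM in KO. It fell by 1.34 on the log2 scale (SE 0.18, adjusted p = 2.84e-04), without overlap. Its partner chain Col6a2 fell by 1.29 (SE 0.23, adjusted p = 0.00412), with WT levels of 870 to 1868 CPM and KO levels of 582, 486, 362, 942 and 545 CPM. Only KO IntSC 4 reached into the WT range. Col16a1, a collagen that decorates fibril surfaces, lay between 244 and 416 CPM in WT and between 131 and 165 CPM in KO (log2 fold change -1.17 ± 0.18, adjusted p = 0.00114).

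The fibrillar chains were less uniform. Col3a1, the main chain of type III collagen, had 1570, 2251 and 3031 CPM in WT and 834, 642, 1309, 1600 and 1479 CPM in KO. With KO IntSC 4 inside the WT range, its log2 fold change of -0.92 ± 0.23 had an adjusted p of 0.0438. The sixth collagen called was Col5a3, named because it completes the count and chosen after its values were seen. Its level was 37.2 to 196 CPM in WT and 10.3 to 32.7 CPM in KO. The call for Col3a1 was lost in 8 of the 11 fits that each left out 1 library, with an adjusted p of up to 0.140 without KO IntSC 1, whereas Col15a1, Col6a3, Col16a1, Col6a2 and Col5a3 were called in all 11.

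Of 15 enzymes and chaperones of collagen maturation tested, 2 fell, 1 rose and 12 did not pass, with a median log2 fold change of -0.37. Serpinh1 encodes HSP47, the chaperone that binds procollagen in the endoplasmic reticulum. It was at 1575, 2539 and 2813 CPM in WT and at 1220, 1135, 1214, 1161 and 1343 CPM in KO. The 5 KO libraries were close to each other and all under the lowest WT library (log2 fold change -1.0 ± 0.16, adjusted p = 0.00133). Plod1, a lysyl hydroxylase that modifies collagen, was between 140 and 240 CPM in WT and between 87.9 and 130 CPM in KO (log2 fold change -0.83 ± 0.19, adjusted p = 0.0256). Loxl3, a lysyl oxidase-like crosslinking enzyme, moved the other way, from 36.4 to 91.1 CPM in WT to 79.5 to 144 CPM in KO (log2 fold change 0.98 ± 0.25, adjusted p = 0.0497). Loxl3 overlaps its neighbour Htra2 in the annotation, which was also called higher and is named after its values were seen, and how reads were shared between them is not given in the sources used here. Leaving out 1 library ended the call for Plod1 in 4 of 11 fits, with an adjusted p of up to 0.0868 without KO IntSC 1, and for Loxl3 in 9 of 11, with up to 0.150 without the same library.

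**Figure D2:**
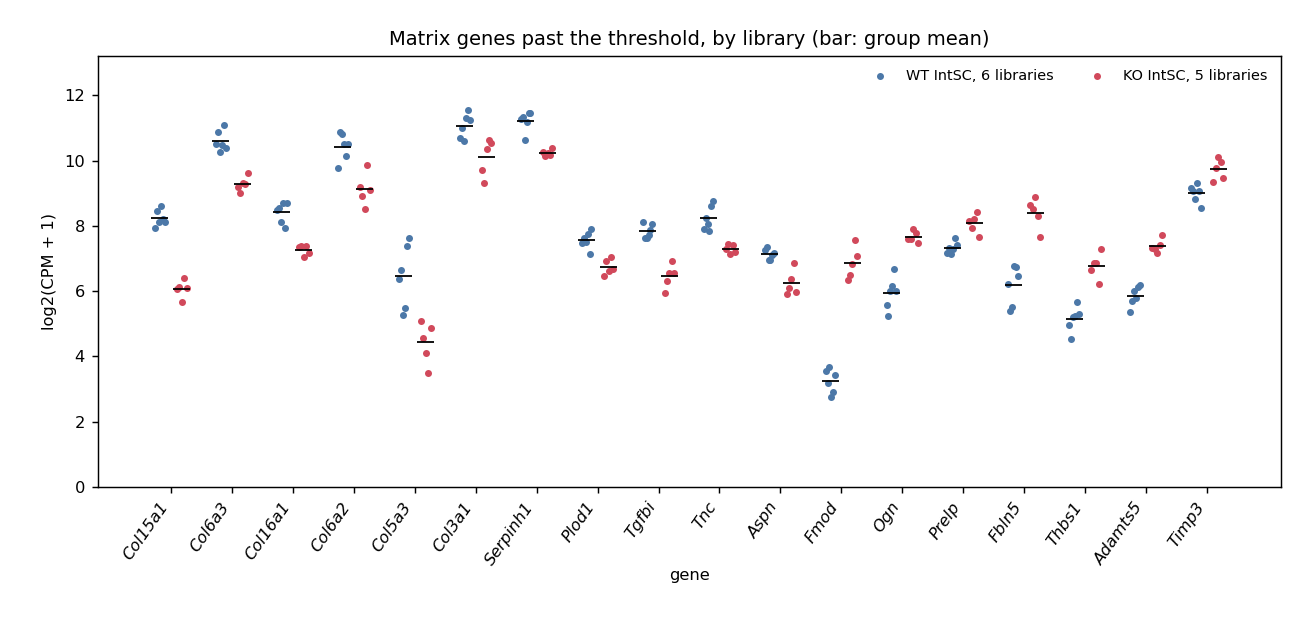
Matrix genes past the threshold are shown on the x axis, with log2(CPM + 1) on the y axis. Blue points are the 6 WT and red points the 5 KO libraries, and bars are group means; Col15a1 to Aspn are lower in KO and Fmod to Timp3 higher, and among the 18 genes drawn the groups overlap in Col6a2 and Col3a1.

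Small leucine-rich proteoglycans bind collagen and shape its fibrils. Of 10 tested, 3 rose, 1 fell and 6 did not pass, with a median log2 fold change of -0.06. Fmod (fibromodulin) had the smallest p of all genes tested, with 5.80, 8.96 and 11.7 CPM in WT and 79.7, 89.1, 114, 187 and 133 CPM in KO. Its lowest KO library was well above its highest WT library (log2 fold change 3.78 ± 0.29, adjusted p = 2.94e-07). Ogn (osteoglycin, also called mimecan) was between 36.4 and 102 CPM in WT and at 193, 193, 237, 217 and 178 CPM in KO (log2 fold change 1.68 ± 0.23, adjusted p = 2.84e-04). Prelp, which anchors basement membranes to collagen, rose from 139 to 197 CPM in WT to 201 to 346 CPM in KO (log2 fold change 0.77 ± 0.18, adjusted p = 0.0262). Aspn (asporin) was the one member that fell, with 122 to 162 CPM in WT and 59.5 to 116 CPM in KO (log2 fold change -0.86 ± 0.21, adjusted p = 0.0378). The calls for Prelp and Aspn were lost in 8 and 7 of the 11 fits without 1 library, with adjusted p up to 0.0734 without KO IntSC 3 and 0.125 without KO IntSC 1. Lum, the proteoglycan lumican, did not pass, with 206 to 266 CPM in WT and 99.1 to 174 CPM in KO (adjusted p = 0.0594); it is named from the stromal markers after its values were seen.

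Among 17 genes of elastic fibres, 1 rose, 3 fell and 13 did not pass, and the median was -0.12. Fbln5, which guides elastin onto microfibrils, was at 40.8, 80.1 and 108 CPM in WT and at 396, 366, 475, 315 and 202 CPM in KO. All KO libraries were above all WT libraries (log2 fold change 2.20 ± 0.27, adjusted p = 1.22e-04). The other 3 fell in the same libraries. Fbln1 had a log2 fold change of -1.03 ± 0.23 (adjusted p = 0.0229), Mfap4 of -0.89 ± 0.20 (adjusted p = 0.0236) and Ltbp4, which tethers latent TGF-beta to microfibrils, of -0.77 ± 0.18 (adjusted p = 0.0328). Mfap4 and Ltbp4 did not overlap between the groups, whereas 2 of 5 KO libraries lay within the WT range for Fbln1. These calls were lost in 6, 5 and 7 of the 11 fits without 1 library, with adjusted p up to 0.0734 for Fbln1 without KO IntSC 3, 0.0713 for Mfap4 without KO IntSC 2 and 0.107 for Ltbp4 without KO IntSC 5.

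Matricellular proteins sit in the matrix and modulate cell contact rather than build fibres. Outside the CCN family, 18 were tested, of which 2 rose, 3 fell and 13 did not pass, with a median log2 fold change of -0.27. Tgfbi, a TGF-beta-induced adhesion protein, was at 196, 222 and 276 CPM in WT and at 60.8, 77.9, 92.8, 121 and 93.2 CPM in KO (log2 fold change -1.37 ± 0.20, adjusted p = 5.80e-04). Tnc, the anti-adhesive protein tenascin-C, lay between 231 and 432 CPM in WT and between 141 and 172 CPM in KO (log2 fold change -0.99 ± 0.19, adjusted p = 0.00859). Thbs1, thrombospondin-1, ran opposite, from 22 to 49.9 CPM in WT to 98.4, 115, 116, 73.1 and 154 CPM in KO (log2 fold change 1.65 ± 0.25, adjusted p = 6.97e-04). Smoc2, a calcium-binding secreted modular protein, rose from 83.0 to 142 CPM to 170 to 291 CPM (adjusted p = 0.0256). In none of these 4 genes did the groups overlap. The third lower member was Spon2 (log2 fold change -2.16, adjusted p = 0.0390), named after its values were seen and lost in 7 of 11 fits without 1 library, with an adjusted p of up to 0.127 without KO IntSC 1. The Smoc2 call was lost without WT IntSC 1, KO IntSC 1 or KO IntSC 4, with an adjusted p of up to 0.103 without KO IntSC 1, and those for Tgfbi, Tnc and Thbs1 in no such fit.

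Of 33 matrix proteases and inhibitors tested, 2 rose, none fell and 31 did not pass, with a median of -0.13. Adamts5, a protease that cleaves aggrecan and versican, was at 39.9, 58.8 and 71.5 CPM in WT and at 159, 157, 142, 169 and 209 CPM in KO. Each KO library was clear of every WT library (log2 fold change 1.52 ± 0.20, adjusted p = 2.57e-04). Timp3, a matrix-bound inhibitor of such proteases, rose in the same libraries from 371 to 642 CPM to 648 to 1116 CPM (log2 fold change 0.75 ± 0.18, adjusted p = 0.0378). In the basement membrane list, 11 genes were tested and 1 moved each way. Lama5, a laminin chain, was between 10.7 and 21.4 CPM in WT and between 27.3 and 44.3 CPM in KO (adjusted p = 0.0328), and Hspg2, the proteoglycan perlecan, between 921 and 1397 CPM in WT and between 464 and 836 CPM in KO (adjusted p = 0.0364). The calls for Timp3, Lama5 and Hspg2 were lost in 8, 7 and 8 of the 11 fits without 1 library, with adjusted p up to 0.120 and 0.117 without KO IntSC 3 for Timp3 and Lama5 and 0.0958 without KO IntSC 5 for Hspg2.

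Among genes that connect the matrix to the cytoskeleton, where 0.853% of all genes tested rose, 1 of 16 integrins rose, Itga8, from 0 to 3.09 CPM in WT to 8.37, 6.41, 29.1, 30.6 and 14.4 CPM in KO (log2 fold change 3.52 ± 0.89, adjusted p = 0.0497). Too few WT libraries had enough reads of Itga8 for the filter on low counts. It entered the test through the KO libraries, and its adjusted p describes that pattern only. The Itga8 call was lost in 10 of 11 fits without 1 library, with an adjusted p of up to 0.203 without KO IntSC 3. Of 48 genes of the actin cytoskeleton and focal adhesions, 2 rose, none fell and 46 did not pass, with a median of 0.02. Pdlim2, an actin-associated adaptor, was at 11.5, 54.7 and 72.6 CPM in WT and at 271, 203, 216, 307 and 226 CPM in KO (log2 fold change 2.40 ± 0.38, adjusted p = 0.00283). Tns1, which links integrins to actin, rose from 161 to 240 CPM to 316 to 414 CPM (log2 fold change 0.93 ± 0.16, adjusted p = 0.00320). Both had groups without overlap and were called in all 11 fits.

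**Figure D3:**
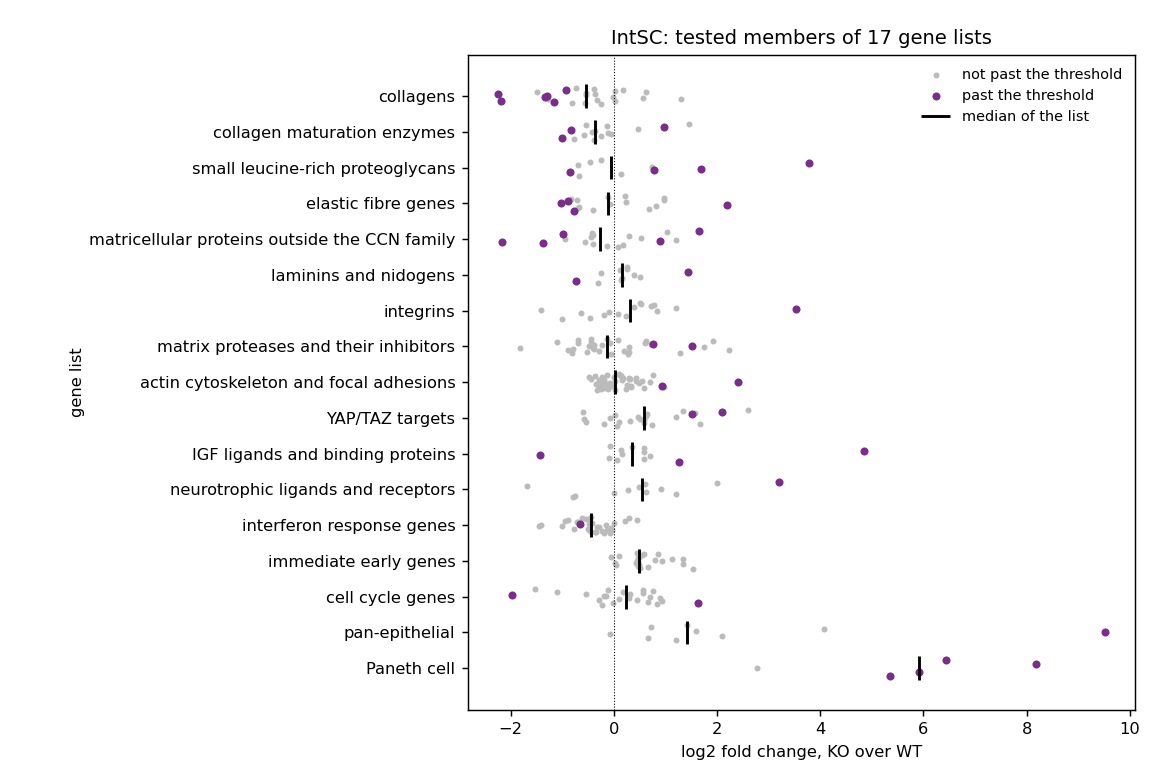
Each point is a tested member of 1 of 17 gene lists, with its log2 fold change of KO over WT on the x axis. Purple points passed the threshold and grey points did not, and black bars are list medians; the collagen median lies at -0.54 and that of the YAP/TAZ targets at 0.58.

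Of 23 tested genes known as YAP/TAZ targets, 2 rose, none fell and 21 did not pass, and 18 had a log2 fold change above 0, with a median of 0.58. Amotl2 encodes an angiomotin that binds YAP and promotes its inhibition. Its level was 25.5, 37.3 and 69.9 CPM in WT and 227, 144, 186, 199 and 191 CPM in KO, without overlap (log2 fold change 2.09 ± 0.24, adjusted p = 8.98e-05). Crim1, a membrane protein that binds BMPs, was at 58.4, 103 and 133 CPM in WT and at 319, 350, 232, 276 and 264 CPM in KO, again without overlap (log2 fold change 1.52 ± 0.21, adjusted p = 2.84e-04). None of 19 genes of the Hippo kinase core and the TEAD factors passed. Its most abundant members were the upstream kinases Taok1, with a log2 fold change of 0.12 ± 0.25 (adjusted p = 0.959), and Map4k4, with 0.15 ± 0.29 (adjusted p = 0.95).

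Promoter windows reached from 250 bases before to 50 after the promoter start used for each gene, which can lie inside the annotated gene. They were searched on both strands for the TEAD motif GGAATG and the AP-1 motif TGANTCA. RefSeq windows of assembly GRCm38.p6 were matched for 9398 of the 12421 genes tested. The TEAD motif was present in 12.2% of these windows, in 12 of the 65 windows of higher genes (18.5%) and in 13 of the 62 windows of lower genes (21%). The AP-1 motif was in 4.71% of all windows, in 9.23% of those of higher genes and in 9.68% of those of lower genes. These shares are a description, and a match is not a binding site. Among the 12 higher and 12 lower genes with the smallest p, 13 had such a window, and 3 of these carried a TEAD motif before the start. They were Amotl2, Crim1 and the lower gene Kcnk2, a background potassium channel described further on. A stretch of 101 bases of each is shown 5′ to 3′ on the strand of the gene to set the motif of a lower gene beside those of 2 higher genes. The motif is in capitals and reads CATTCC where it lies on the opposite strand.
Amotl2, chr9:102717692-102717792, plus strand: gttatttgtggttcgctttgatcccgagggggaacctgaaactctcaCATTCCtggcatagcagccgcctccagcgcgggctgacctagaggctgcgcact
Crim1, chr17:78200122-78200222, plus strand: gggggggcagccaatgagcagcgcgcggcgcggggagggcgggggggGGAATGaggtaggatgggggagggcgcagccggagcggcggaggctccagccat
Kcnk2, chr1:189402309-189402409, minus strand: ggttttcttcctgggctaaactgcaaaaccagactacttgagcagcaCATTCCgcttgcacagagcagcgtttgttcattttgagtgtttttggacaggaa
The motif ended 59 bases before the promoter start used for Amotl2, 73 before that of Crim1 and 83 before that of Kcnk2. For Amotl2 and Kcnk2 the stretch shown lies inside the annotated gene. The annotation runs from 102717091 to 102733418 for Amotl2 and from 189207930 to 189402782 for Kcnk2.

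Secreted signals and their binding proteins moved gene by gene rather than by family. In the IGF system, 2 of 13 tested members rose and 1 fell. Igfbp2, an IGF-binding protein, was at 0, 1.14 and 7.61 CPM in WT and at 76.9, 60.9, 67.7, 63.2 and 107 CPM in KO (log2 fold change 4.85 ± 0.85, adjusted p = 0.00984). Igfbp5, another IGF-binding protein, was at 164, 224 and 317 CPM in WT and at 71.1, 55.2, 106, 72.6 and 135 CPM in KO (log2 fold change -1.43 ± 0.24, adjusted p = 0.00265). Neither gene overlapped between the groups. Igfbp2 entered the test through the KO libraries, so its adjusted p describes that pattern only. Stc2, a stanniocalcin that inhibits the proteases releasing IGF, rose from 115 to 198 CPM to 292 to 537 CPM (log2 fold change 1.26 ± 0.19, adjusted p = 8.98e-04). Igfbp2 and Igfbp5 are neighbours on mouse chromosome 1, 5591 bases apart, and moved in opposite directions. The same held for the proteoglycan genes Aspn and Ogn on chromosome 13, which are 40450 bases apart.

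Bdnf, a neurotrophin, was the only one of 12 tested neurotrophic ligands and receptors to pass. It was at 1.6, 9.90 and 26.5 CPM in WT and at 157, 72.4, 69.8, 119 and 97.5 CPM in KO, with no overlap (log2 fold change 3.20 ± 0.46, adjusted p = 5.80e-04). Negr1, a GPI-anchored neuronal adhesion molecule, was the only one of 18 in its list to pass and fell from 34.5, 59.1 and 92.6 CPM in WT to 16.5, 7.75, 8.34, 0.297 and 3.83 CPM in KO (log2 fold change -3.08 ± 0.56, adjusted p = 0.00537). The summed level of the neuronal adhesion list was 1009 to 1598 CPM in WT and 756 to 1012 CPM in KO. None of 37 axon guidance genes passed; Sema4c and Nrp1, the most abundant, had log2 fold changes of -0.05 and -0.29.

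Hhip, a decoy receptor for Hedgehog ligands, was the single one of 11 Hedgehog response genes to pass, with 32.1 to 122 CPM in WT and 166, 134, 104, 125 and 147 CPM in KO (log2 fold change 1.13 ± 0.27, adjusted p = 0.0390). One KO library lay within the WT range, and the call was lost in 10 of the 11 fits without 1 library, with an adjusted p of up to 0.125 without KO IntSC 1. No Wnt ligand or R-spondin out of 10 tested passed; Wnt2b had a log2 fold change of -0.63 ± 0.27 and Wls, which carries Wnt proteins to the surface, of 0.18 ± 0.17. Of 5 secreted Wnt antagonists none passed. Sfrp1 lay between 1142 and 1861 CPM in WT and between 588 and 1260 CPM in KO (log2 fold change -0.74 ± 0.19, adjusted p = 0.0528), and Frzb between 81.5 and 217 CPM in WT and between 196 and 340 CPM in KO (log2 fold change 0.90 ± 0.24, adjusted p = 0.0649).

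Likewise, no member passed among 16 BMP ligands and antagonists, 17 TGF-beta ligands and receptors, 17 genes of FGF and HGF signalling, 9 EGF family genes and 6 PDGF ligands and receptors. Their most abundant members included the BMP antagonist Nbl1 and the BMP-binding Fstl1, at log2 fold changes of -0.14 and 0.29. The TGF-beta receptor Tgfbr2 stood at 0.85 ± 0.29 (adjusted p = 0.220) and its list neighbour Lrrc32, which holds latent TGF-beta, at 0.16. Fgfr1 and Fgfr2 stood at 0.16 and 0.62, the EGF ligand Ereg and the EGF receptor inhibitor Errfi1 at 0.47 and 0.01, and Pdgfra at -0.03.

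Of 22 cytokines and receptors, Il33, an alarmin of barrier tissues, was the one that passed. It was at 79.3, 148 and 179 CPM in WT and at 46.9, 52.4, 82.0, 78.4 and 56.5 CPM in KO (log2 fold change -1.07 ± 0.24, adjusted p = 0.0259), with only KO IntSC 3 above the lowest WT library. Ackr3, a scavenging receptor for CXCL12, was the one of 18 chemokine genes that passed, rising from 22.1 to 39.9 CPM to 47.8 to 96.9 CPM (log2 fold change 1.24 ± 0.27, adjusted p = 0.0229). The interferon response list held 1 call among 32 tested genes, Ifitm3, an antiviral membrane protein, at 1353 to 1917 CPM in WT and 940 to 1351 CPM in KO (log2 fold change -0.65 ± 0.15, adjusted p = 0.0339). Only 4 of those 32 genes had a log2 fold change above 0, and the median was -0.44. The calls for Il33, Ackr3 and Ifitm3 were lost in 7, 3 and 7 of the 11 fits without 1 library, with adjusted p up to 0.0921 without KO IntSC 1, 0.0879 without KO IntSC 3 and 0.104 without KO IntSC 5.

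**Figure D4:**
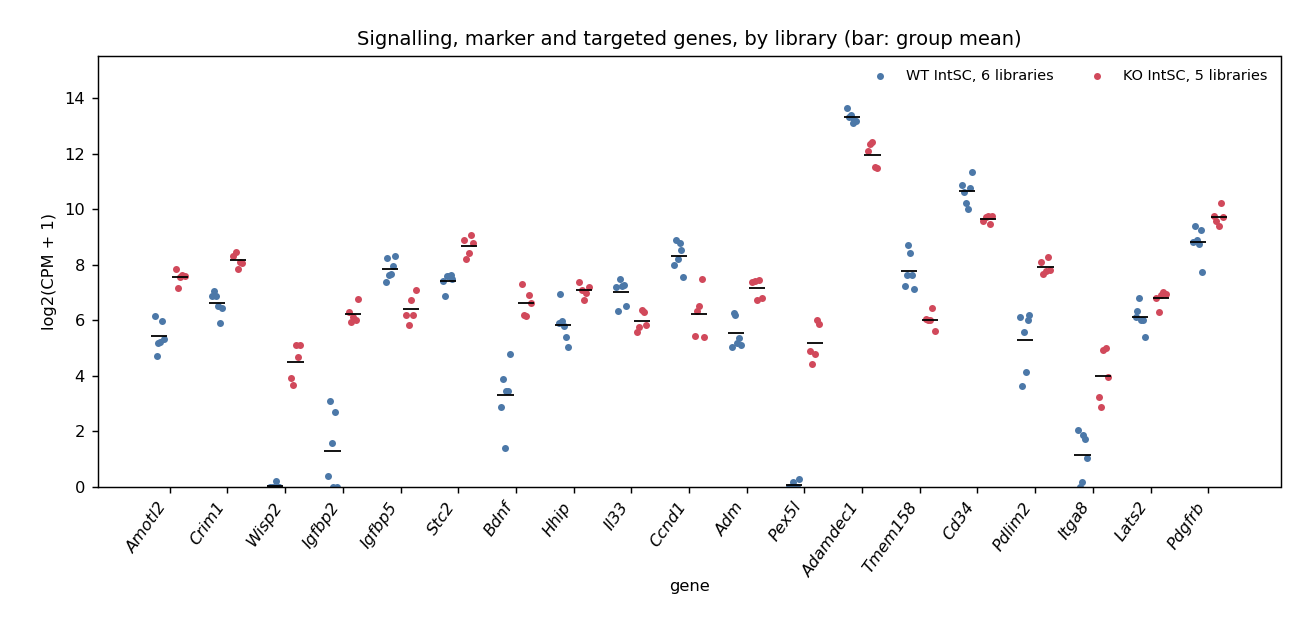
Signalling, marker and targeted genes are on the x axis, with log2(CPM + 1) on the y axis. Blue points are the 6 WT and red points the 5 KO libraries, and bars are group means; Pex5l and Wisp2 are near 0 in every WT library, and Igfbp2 and Igfbp5 differ in opposite directions.

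Genes of cell division did not move as a group. Of 24 tested, 1 rose, 1 fell and 22 did not pass. Ccnd1, cyclin D1, which drives entry into S phase, was at 189, 330 and 478 CPM in WT and at 41.7, 79.5, 89.9, 180 and 40.8 CPM in KO (log2 fold change -1.97 ± 0.36, adjusted p = 0.00859). Cdkn1c, which encodes the cyclin-dependent kinase inhibitor p57, rose in the same libraries from 8.61 to 24.2 CPM to 38.8, 58.0, 43.5, 26.9 and 51.1 CPM (log2 fold change 1.63 ± 0.35, adjusted p = 0.0196). In both genes the groups did not overlap, with KO IntSC 4 the nearest to WT. The Cdkn1c call was lost in 3 of 11 fits, without KO IntSC 2, KO IntSC 3 or KO IntSC 5, with an adjusted p of up to 0.0779 without KO IntSC 2. Adm, adrenomedullin, was the only one of 22 glycolysis and hypoxia genes to pass, with 32.1, 37.7 and 76.5 CPM in WT and 164, 169, 104, 174 and 110 CPM in KO (log2 fold change 1.58 ± 0.26, adjusted p = 0.00246).

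Several further lists held no call. All but 1 of 24 immediate early genes, which cells induce within minutes of stimulation or dissociation, had a log2 fold change above 0 (23 of 24), with a median of 0.49. None passed. Junb had a log2 fold change of 0.48 ± 0.21 (adjusted p = 0.447) and Jun one of 0.10 ± 0.17 (adjusted p = 0.946). The summed level of the list was 8653 to 14931 CPM in WT and 12373 to 18410 CPM in KO, and its part in the other results was not tested. None of 22 stress genes, 16 cholesterol synthesis genes, 17 complement components, 16 prostaglandin genes, 15 retinoid genes, 21 Hox genes or 29 mesenchymal transcription factors passed. In the last list the intestinal stromal factor Nkx2-3 had a log2 fold change of 0.04 ± 0.15. The chaperones Hsp90ab1 and Hspa5 stood at -0.34 and -0.35, the sterol regulator Srebf2 at -0.20, and the complement genes Serping1 and C1ra at -0.03 each. Among the rest, Ptgis and Ptges3 of prostaglandin synthesis stood at -0.55 and -0.15, the retinoid-linked genes Rarres2 and Aldh1a3 at -0.51 and 0.62, Hoxa5 and Hoxb4 at -0.07 and -0.26, and Zeb2 at -0.44.

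In 3 lists of fibroblast markers 1 gene each passed, and each was lower. The list medians were -0.15 for the villus, -0.03 for the subepithelial and -0.46 for the submucosal fibroblast markers, and 6 of the 13 subepithelial markers had a log2 fold change above 0. Adamdec1, a metalloprotease-like protein of intestinal fibroblasts, was the most abundant of all genes called. It was at 8924, 10013 and 12731 CPM in WT and at 4353, 5257, 5455, 2930 and 2864 CPM in KO, with all KO libraries below all WT libraries (log2 fold change -1.31 ± 0.18, adjusted p = 3.00e-04). Adamdec1 was the single one of 7 villus fibroblast markers to pass. The other 6 are markers named in the text of the study, which does not name Adamdec1. The list was set with earlier results of these data known, so its direction is not independent evidence. Tmem158 was the only one of 13 subepithelial fibroblast markers to pass, falling from 139, 196 and 415 CPM to 64.5, 62.6, 63.2, 85 and 47.7 CPM (log2 fold change -1.89 ± 0.28, adjusted p = 5.80e-04). Cd34, a sialomucin of submucosal and adventitial fibroblasts, was the only one of 10 in its list and fell from 1026, 1667 and 2582 CPM to 772, 838, 856, 710 and 854 CPM (log2 fold change -1.05 ± 0.20, adjusted p = 0.00688). The summed levels of the submucosal list were 16115 to 20008 CPM in WT and 10285 to 17039 CPM in KO.

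Contractile cell types gave a mixed picture. Of 13 pericyte markers tested, Rgs4, a regulator of G protein signalling, rose from 24.4 to 53.4 CPM to 54.5 to 115 CPM (log2 fold change 1.25 ± 0.27, adjusted p = 0.0206). Kcnj8, a subunit of the ATP-sensitive potassium channel, fell from 21.0 to 46.9 CPM to 9.33 to 18.2 CPM (log2 fold change -1.41 ± 0.35, adjusted p = 0.0472). The pericyte sums overlapped, at 553 to 819 CPM in WT and 494 to 899 CPM in KO, as did those of the smooth muscle list, at 3454 to 4987 CPM and 3038 to 4967 CPM. Leaving out 1 library ended the Rgs4 call in 4 and the Kcnj8 call in 9 of 11 fits, with adjusted p up to 0.0765 and 0.133, both without KO IntSC 5.

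Further genes with the smallest p fell outside these lists. Pex5l, an accessory subunit of HCN channels in neurons, had 2 reads over the 6 WT libraries and 20.3 to 63.9 CPM in KO. The ratio of its pooled reads, 753, had a 95% counting interval of 208 to 6224. Wisp2, a CCN family protein also called CCN5, had 1 read over the WT libraries and 14.3, 11.6, 33.1, 24.8 and 33.5 CPM in KO (pooled ratio 924, 95% counting interval 165 to 36529). Both were absent or nearly so from each WT library and present in each KO library, and both entered the test through the KO libraries, so their adjusted p of 3.64e-07 for Pex5l and 9.45e-06 for Wisp2 describe that pattern only. Nkain4, which interacts with the sodium pump, was at 25.9 to 65.9 CPM in WT and at 144 to 231 CPM in KO (log2 fold change 1.80 ± 0.23, adjusted p = 1.77e-04), and Sept4, a septin, at 75.1 to 123 CPM and 181 to 277 CPM (log2 fold change 1.36 ± 0.18, adjusted p = 2.84e-04).

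On the lower side, Kcnk2, the mechanosensitive potassium channel TREK-1, had 310, 443 and 616 CPM in WT and 180, 100, 102, 229 and 153 CPM in KO (log2 fold change -1.57 ± 0.23, adjusted p = 5.80e-04). The galectin Lgals1 fell by 1.52 on the log2 scale (SE 0.21, adjusted p = 3.90e-04), from 237 to 372 CPM to 65.8 to 135 CPM. Lgals3bp, a secreted glycoprotein that binds galectins, fell by 1.30 (SE 0.21, adjusted p = 0.00133), from 151 to 334 CPM to 84.3 to 124 CPM. None of the 3 genes overlapped between the groups. Nrep fell by 1.84 (SE 0.27, adjusted p = 5.80e-04) and the proprotein convertase Pcsk6 by 1.37 (SE 0.22, adjusted p = 0.00130), also without overlap.

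Of the 6 most abundant genes called, Adamdec1, Serpinh1 and Col3a1 are described above. Ppap2b, a lipid phosphatase that breaks down lysophosphatidic acid, was the only one of the 6 that rose, from 1254, 1429 and 1536 CPM in WT to 3138, 3156, 2156, 2435 and 2348 CPM in KO, without overlap (log2 fold change 0.90 ± 0.14, adjusted p = 0.00163). Cygb (cytoglobin) and Tmem176b fell by 0.77 and 0.67 on the log2 scale, with adjusted p of 0.0262 and 0.0493, and in each case 1 KO library lay within the WT range. These calls were lost in 7 and 9 of the 11 fits without 1 library, with adjusted p up to 0.0892 and 0.152, both without KO IntSC 2. Tmem176b overlaps Tmem176a, which was called in the same direction and is named after its values were seen, so reads of the pair may be shared.

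A separate set of higher genes is in the marker list of Paneth cells, the antimicrobial cells at the base of the crypt. Which cells these reads came from was not tested. Of 10 Paneth cell markers, 5 passed the filter on low counts and 4 of these were higher in KO. Since they were at or near 0 in WT, they entered the test through the KO libraries. Lyz1, the Paneth cell lysozyme, was at 0, 0.0736 and 0.884 CPM in WT and at 20.3, 16.8, 21.9, 19.9 and 22.9 CPM in KO (adjusted p = 5.80e-04). Dmbt1, a mucosal scavenger protein, had 2 reads over the WT libraries and 8.63, 12.8, 14.8, 9.66 and 53.4 CPM in KO, a pooled ratio of 392 (95% counting interval 108 to 3245) that fell to 226 without KO IntSC 5. The lectins Reg3g and Reg3b were at 10.7 to 59.2 CPM and 17.8 to 61.7 CPM in KO, against at most 2.06 and 4.42 CPM in WT. In these 4 genes every KO library was above every WT library. The call for Reg3b was lost in 6 of the 11 fits without 1 library, with an adjusted p of up to 0.0761 without KO IntSC 5.

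The alpha-defensins moved the same way. The called alpha-defensin genes spanned positions 21025545 to 21735471 of mouse chromosome 8 (assembly GRCm38.p6). Of 20 tested genes inside that span, 13 were called, all 13 higher in KO, and since the span was set by called genes the count is a description only. Defa24 was at 0, 0.869 and 3.55 CPM in WT and at 64.4, 29.1, 38.2, 83.3 and 59.7 CPM in KO (log2 fold change 5.59 ± 0.68, adjusted p = 1.50e-04), and Defa21 at 0 to 1.35 CPM and 9.33 to 46.8 CPM (log2 fold change 5.35 ± 0.72, adjusted p = 2.84e-04). Both genes entered the test through the KO libraries, so their adjusted p describe that pattern only. Defensin genes are near-identical copies, so the division of reads among them is uncertain, and the 13 calls may count the same reads in part.

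Summed over the 10 Paneth cell markers, the level was 0.532 to 8.24 CPM in WT and 74.0, 70.1, 105, 87.4 and 242 CPM in KO. Other epithelial markers separated the groups less. The enterocyte sums were 6.60 to 34.7 CPM in WT and 17.2 to 53.5 CPM in KO, and Apoa1 and Anpep did not pass, at log2 fold changes of 0.59 and -1.10. The pan-epithelial sums were 5.30 to 175 CPM in WT and 55.9 to 182 CPM in KO. Among those 13 markers the keratin Krt19 was the one called, with no read in WT and 2.06, 6.41, 6.46, 41.3 and 8.69 CPM in KO, at least 158-fold higher against a floor of 3 counts over the WT group, and at least 76.8-fold higher without KO IntSC 4. With no read in WT, Krt19 entered the test through the KO libraries. Epcam, the surface protein CD326 used for depletion, was at 0 to 19.2 CPM in WT and 0.134 to 15.7 CPM in KO (adjusted p = 0.898), and Vil1, an enterocyte villin, at 0 to 9.18 CPM and 0 to 8.95 CPM. The goblet cell sums were 0.253 to 95.9 CPM in WT and 25.2 to 68.0 CPM in KO, with Agr2 and Tff3 not passing (adjusted p = 0.989 and 0.0755). Only Pla2g2a among the 10 Paneth cell markers was at 0 in every library.

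The Paneth cell sums separated the groups, while the enterocyte, goblet cell and pan-epithelial sums overlapped. The medians of these 3 sums were 29.2, 5.51 and 22.9 CPM in WT and 33.1, 52.0 and 107 CPM in KO. The part of the epithelial sums in the other results was not tested beyond the following fits. With the summed level of the pan-epithelial, enterocyte, goblet and Paneth cell lists as a covariate, 46 genes passed, 25 higher and 21 lower, and 31 of the 183 calls were among them. Without WT IntSC 6 and KO IntSC 5, the libraries that stood apart in the pan-epithelial and Paneth cell sums, 116 genes passed, 77 higher and 39 lower. Without KO IntSC 4 as well, which stood apart in macrophage, mast cell and mesothelial sums, 106 passed, 65 higher and 41 lower. Of the 183 calls, 98 and 85 were called in these fits, and no call changed sign in either.

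**Figure D5:**
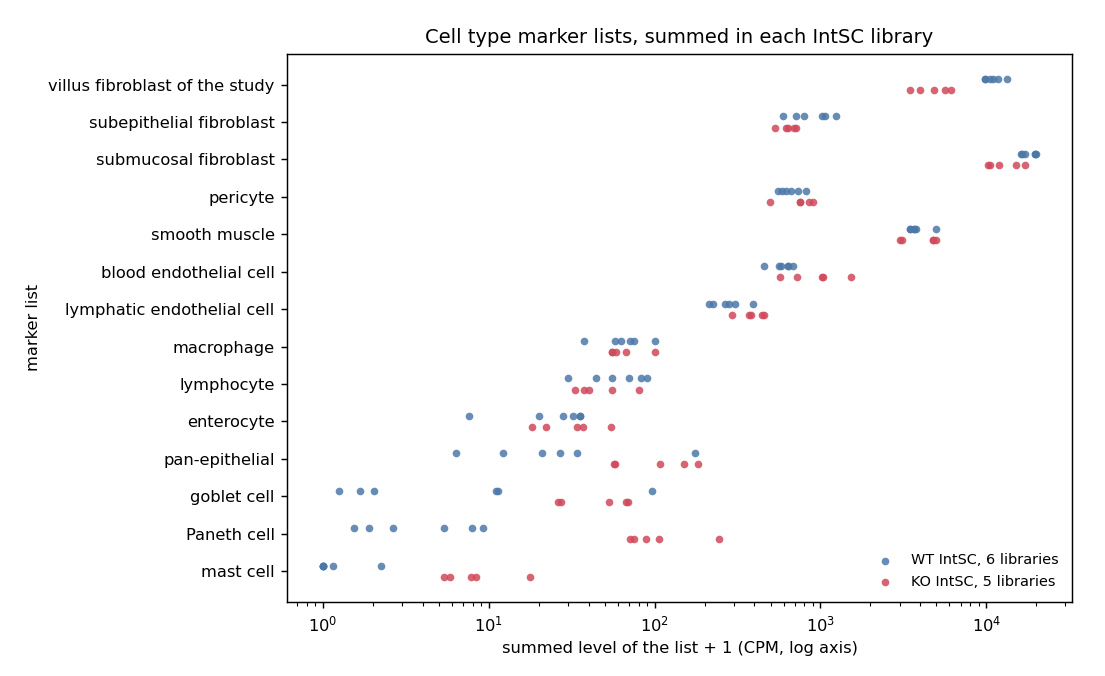
Summed level of each cell type marker list plus 1, in CPM on a log axis, for each of the 6 WT (blue) and 5 KO (red) libraries. The Paneth cell and mast cell sums separate the groups with KO higher and the villus fibroblast sums with KO lower, while the enterocyte, lymphocyte and macrophage sums overlap. The villus fibroblast sums are mostly Adamdec1, at 8924 to 12731 CPM in WT and 2864 to 5455 CPM in KO, and the list median was -0.15. Of the 8 mast cell markers 1 was tested.

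Among other cell types the sort could have carried over, most sums overlapped between the groups, while those of mast cells were low and did not. The blood endothelial sums were 453 to 679 CPM in WT and 570 to 1535 CPM in KO, with 4 of 5 KO libraries above all WT libraries. None of the 10 markers passed the threshold, but 9 had a log2 fold change above 0, with a list median of 0.89. Esam, an endothelial and pericyte junction protein, had a log2 fold change of 0.89 ± 0.23 (adjusted p = 0.0598) and Plvap one of 0.10 ± 0.25. The lymphatic endothelial sums were 212 to 391 CPM in WT and 292 to 456 CPM in KO, while Prox1, the defining factor of that lineage, had 3 reads over the WT and 3 over the KO libraries. With the lymphatic endothelial sum as a covariate 64 genes passed. Macrophage sums were 36.3 to 99.9 CPM in WT and 54.1 to 100 CPM in KO, and lymphocyte sums 29.0 to 88.7 CPM and 32.3 to 79.6 CPM. The mast cell sums were 0 to 1.25 CPM in WT and 4.35 to 16.7 CPM in KO, with 1.41 to 16.7 CPM in KO from Hdc, the enzyme of histamine synthesis (adjusted p = 0.115), while Mcpt1, Mcpt2, Mcpt4 and Tpsb2 were at 0 in every library.

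A set of 9 genes passed in the full fit and in each of 23 other settings, which changed the tool, scaling, filter, covariates or libraries, 7 higher and 2 lower in KO. They were Pex5l, Wisp2, Fbln5, Defa24, Defa21, Crim1, Serpinh1, Igfbp5 and Pim3, of which Pex5l, Wisp2, Defa24 and Defa21 were at or near 0 in WT and entered the test through the KO libraries. Pim3, a survival kinase, was at 165, 186 and 294 CPM in WT and at 599, 684, 445, 355 and 395 CPM in KO, without overlap (log2 fold change 1.26 ± 0.21, adjusted p = 0.00184). Across the 11 fits that each left out 1 library, 77 of the 183 genes were called every time, 50 of the 106 higher and 27 of the 77 lower. The count depended on single libraries, and 99 genes passed without KO IntSC 3, 101 without KO IntSC 2, 105 without KO IntSC 1, 121 without KO IntSC 5 and 121 without WT IntSC 1.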

How the data were processed

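RNA was measured in 6 WT and 5 KO IntSC libraries made with the QuantSeq 3′ protocol. For each library the authors deposited unnormalised counts, whole numbers of reads under each gene symbol. The study's methods name TopHat and Cufflinks, and the submitters' processing notes Bowtie2, edgeR and mm10, the UCSC name of GRCm38; counting of strand and of shared reads is not given in the sources used here. Each table held 23282 rows and 23238 symbols, and counts of the 35 repeated symbols were summed. A supplementary legend of the study gives 5 to 6 mice per group pooled from 3 independent experiments, and which library came from which experiment is not in the labels, so experiments could not be separated and p-values measure the spread between these libraries.

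The test was that of edgeR 4.0.16 under R 4.3.3 (TMM factors, filterByExpr, robust glmQLFit, Benjamini-Hochberg adjustment, threshold 0.05). Standard errors come from the quasi-likelihood F statistic. The common biological coefficient of variation was 0.679. Library measures and Lats1, Lats2 and Pdgfrb on log2(CPM + 1) were compared by two-sided exact permutation tests over the 462 labelings, whose smallest p is 0.00216. A floor of 3 counts corresponds to 5.60e-05% of the smallest and 3.71e-05% of the largest library. Floors and counting intervals cover counting error only, because reads without molecular identifiers are not independent molecules.

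The members, gene lists and tests were chosen with earlier results of these data known. The genes named are Lats1, Lats2 and Pdgfrb, then among genes past the threshold with a mean of at least 5 CPM the 12 higher and 12 lower with the smallest p, the 6 most abundant genes called, and for each list up to 4 members called with the smallest p or, without any, the 2 most abundant, and the genes that passed in all settings (up to 10). Some items the rule names are not reported here. RefSeq promoter and gene tables (GRCm38.p6) were matched by symbol, and 182 of 183 called genes had a position. Alternatives were DESeq2 1.42.0, limma-voom 3.58.1, other scalings and filters, a replicate block, covariates, all 4 groups and each library left out. The fits that left out libraries together were added after seeing the data.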

Additional observations from a re-analysis of the deposited data

Results flagged for a closer look

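In 114 groups of values (library measures, the genes named by rank and the cell type marker sums, each in WT and in KO), 14 values, in 7 of the 11 libraries, stood far from the rest of their group by Dixon's test, where chance alone marks about 1 group in 20, or 5.70 of them. WT IntSC 6 accounted for 4, with summed levels of 4987 CPM for the smooth muscle list against 3454 to 3765 CPM in the rest of WT, 175 CPM for the pan-epithelial list against 5.30 to 33 CPM, 95.9 CPM for the goblet cell list against 0.253 to 10.4 CPM, and 1.25 CPM for the mast cell list against 0 to 0.147 CPM. KO IntSC 4 stood apart in 3 sums, with 100 CPM for the macrophage list against 54.1 to 65.8 CPM, 16.7 CPM for the mast cell list against 4.35 to 7.34 CPM, and 70.9 CPM for the mesothelial list against at most 30 CPM.

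KO IntSC 5 had 242 CPM for the Paneth cell list against 70.1 to 105 CPM in the other KO libraries, and 53.4 CPM for Dmbt1 against 8.63 to 14.8 CPM. KO IntSC 3 had 404 CPM for the adipocyte list against 133 to 176 CPM, and 51.1 CPM for Nrep against 21.0 to 29.1 CPM. In WT IntSC 3 the mesothelial sum was 17.7 CPM against 3.03 to 6.46 CPM. The values of Wisp2 in WT IntSC 4 (0.166 CPM) and of Dmbt1 in WT IntSC 1 (0.294 CPM) rest on 1 and 2 reads, with 0 in the other WT libraries.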

How the results depend on the processing

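The count of 183 genes (106 higher, 77 lower) rose to 376 (196 and 180) with DESeq2. It fell to 46 (25 and 21) with the epithelial covariate, to 64 (33 and 31) with the lymphatic endothelial covariate and to 27 (22 and 5) with all 4 groups in one fit, whose shared spread includes the lymphatic endothelial libraries. The cause of the loss was not tested. DESeq2 called 182 of the 183, and no call changed sign in any setting that kept it. Without 1 library the count ranged from 99 to 186, the higher genes from 61 to 114 and the lower genes from 37 to 81. It fell by over 1.5 times without WT IntSC 1 (121), KO IntSC 1 (105), KO IntSC 2 (101), KO IntSC 3 (99) or KO IntSC 5 (121), and the lower genes also without WT IntSC 5 (50). In fits added after seeing the data, 116 genes (39 lower) passed without WT IntSC 6 and KO IntSC 5, and 106 (65 higher, 41 lower) without KO IntSC 4 as well. RLE factors, upper-quartile factors, limma-voom, the Xist covariate, both filters and the fit without Rn45s, the ribosomal RNA precursor, gave 168 to 234.

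Whether the replicate numbers pair the libraries is not in the labels. Same-numbered libraries correlated between -0.0617 and 0.0583 in their deviations from the group means, a measure over all genes that can miss a shared experiment. Xist was high in libraries 1 and 2 of both groups. The Rn45s shares in WT and KO were 18.8 and 19.2% in library 1 and 13.3 and 11.5% in library 3. They were 13.0 and 12.6% in library 4, 19.2 and 19.0% in library 5, and 14.7 and 20.9% in library 2. With a replicate block 122 genes passed (76 higher, 46 lower), of which 96 were among the 183, and WT IntSC 6 has no partner there. Pdgfrb passed the threshold with DESeq2 (log2 fold change 0.86), limma-voom (0.90) and the filter of 1 read (0.86), and without 1 library its log2 fold change ranged from 0.71 to 0.98, passing without WT IntSC 2. Of 189 genes followed, 50 changed sign in at least 1 setting, none of them past the threshold in the full fit or in that setting. Of 60 list medians 27 changed sign in at least 1 setting, and under the replicate block those of the matrix proteases (0.03), FGF and HGF signalling (0.07) and axon guidance (0.01) did. Genes near 0 in WT rest on few reads, so their fold changes are the least certain.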
